A study of Drosophila melanogaster with 36 samples.

Results

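The expressed long noncoding RNAs of Drosophila S2R+ cells are described here through arsenite stress and recovery. A long noncoding RNA (lncRNA) entered when its symbol in the gene tables began with the prefix lncRNA: and it held at least 200 reads over the 27 poly(A) libraries. Of 1920 lncRNA symbols among 17137 gene symbols, 198 met this rule. Another 1123 held fewer reads and 599 held none. The lncRNAs were thus chosen by their summed read counts, which are a description and carry no test. In the Ensembl annotation 197 of the 198 are typed as noncoding RNA and 1, CR43051, as protein coding. Just inside the limit were CR43719 and CR45979 with 203 reads each and CR42839 with 201 reads. Just outside were CR45484 with 196 reads and CR45188 and CR44478 with 190 reads each.

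lncRNAs are transcripts that are longer than small RNAs and are not translated into a known protein. Many act in the nucleus, where they gather RNA-binding proteins, mark a chromosome or serve as the precursor of a small RNA. In flies the best known are the heat-shock omega transcripts, which collect hnRNP proteins in the omega speckles of stressed nuclei, and the roX RNAs, which guide the dosage compensation complex to the male X chromosome.

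S2R+ is a hemocyte-like embryonic line, and all 36 libraries came from it, in 12 groups of 3. Rin RNAi cells had rin (rasputin, the fly G3BP, a stress granule protein) knocked down, Mock RNAi cells carried the control RNAi, and WT cells had no RNAi. Each kind was taken untreated (control), after 0.5 mM sodium arsenite for 3 h (stress) and after a further 3 h in fresh medium (recovery), and so were the Click-iT captures on beads. The study asked whether the transcriptional response to arsenite depends on stress granules, and the Click-iT libraries, whose molecule is labelled total RNA, come from a chemistry made for capturing tagged new RNA. The labels do not say that replicates were separate cultures, so p-values measure the spread between these samples, which may be technical.

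The poly(A) libraries held 6121664 to 8940613 gene counts in WT cells and 6897154 to 11211712 in Mock and Rin RNAi cells. The Click-iT libraries held 169760 to 2746277 gene counts, and 70.2% to 94.2% of their reads mapped to several places, against 3.88% to 7.51% for poly(A) RNA. The targeted transcript rin was lower in the Rin RNAi libraries, with 391, 280.2 and 204 CPM (counts scaled by library size within each set of libraries) in control against 895, 912 and 896 CPM in Mock RNAi control. Of 10 hemocyte markers, 8 reached 1 CPM in the poly(A) controls, with a summed level of 1368 to 5226 CPM. Neuron markers summed to 20.1 to 45.1 CPM, muscle markers to 1.78 to 24.5 CPM and germ line markers to 75.6 to 138 CPM. Fat body and gut markers were below 1 CPM in sum, and betaTry was at 0.

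The 198 lncRNAs together held 1568171 reads in the poly(A) libraries, and 4 of them held 62.8%. These were CR42862, which alone held 31.3%, Hsromega, CR43334 and CR43264. The median lncRNA was 865.5 nt long over its exons, with a range of 201 to 21710 nt, and 112 had a single exon block. Per kb of exon, CR43264 had the highest mean level over the poly(A) libraries, 1789 CPM per kb, ahead of CR40469 with 539 and CR42862 with 379 CPM per kb. That rank came from the Rin and Mock RNAi libraries: in WT control CR42862 was highest, with 367 CPM per kb, and CR43264 was at 98.1 CPM per kb. By position, 35 lay on 2L, 35 on 2R, 52 on 3L, 40 on 3R, 3 on 4 and 33 on X (dm6 coordinates from Ensembl are used throughout). Of the 198, 136 shared no exonic base with another annotated gene, 62 shared some and 13 shared at least 50%. Whether the authors' counting used strand is not given. Reads that fit several genes, 1.29% to 1.54% in the poly(A) libraries, are not in the gene counts, so levels of overlapping lncRNAs may be too low. CR43423 lies wholly inside exons of CR43334 on the opposite strand in this annotation and still held 4792 reads.

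lncRNAs took a larger share of all gene counts after arsenite. Rin RNAi libraries gave lncRNAs between 0.549% and 0.578% of their gene counts when untreated, between 0.736% and 0.874% under arsenite and between 0.831% and 0.872% after recovery. The share in Mock RNAi libraries was between 0.523% and 0.567% untreated, between 0.770% and 0.818% under arsenite and between 0.809% and 0.827% after recovery. The share in WT libraries was between 0.396% and 0.432% untreated, between 0.490% and 0.529% under arsenite and between 0.511% and 0.522% after recovery. In each kind of cell no stress or recovery library overlapped a control library. The share is a sum in which a few lncRNAs with many reads weigh most. Over the 9 poly(A) libraries of each stage, Hsromega held 14376, 77896 and 85080 unscaled reads in control, stress and recovery. CR43334 held 39590, 67673 and 68973, CR43264 held 25465, 47784 and 66646, and CR31044 held 1991, 22106 and 27144. The share thus does not say how many lncRNAs rose. In bulk RNA of this sort, a change in the number of cells that make an RNA and a change in RNA per cell cannot be told apart.

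More lncRNAs rose than fell in every comparison with control. In Rin RNAi cells, of 198 tested, 88 rose and 19 fell in stress, where 30.4% of all genes tested rose and 30.8% fell (edgeR quasi-likelihood test, Benjamini-Hochberg adjusted p under 0.05). In Rin RNAi recovery 103 rose and 24 fell, against 35.2% and 34.3% of all genes. Mock RNAi stress had 82 of 198 higher and 20 lower, against 29% and 29.8% of all genes. In Mock RNAi recovery 97 rose and 21 fell, against 33.1% and 32.8%. In WT cells, of 138 tested, 51 rose and 15 fell in stress, against 30.3% and 30%, and 61 rose and 22 fell in recovery, against 35.2% and 33.5%. The median log2 fold change over the lncRNAs was 0.43 in Rin RNAi stress, 0.40 in Mock RNAi stress and 0.18 in WT stress. It was 0.49 in Rin RNAi recovery, 0.55 in Mock RNAi recovery and 0.30 in WT recovery. Over all genes tested the same medians lay between -0.0048 and 0.028.

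**Figure D1:**
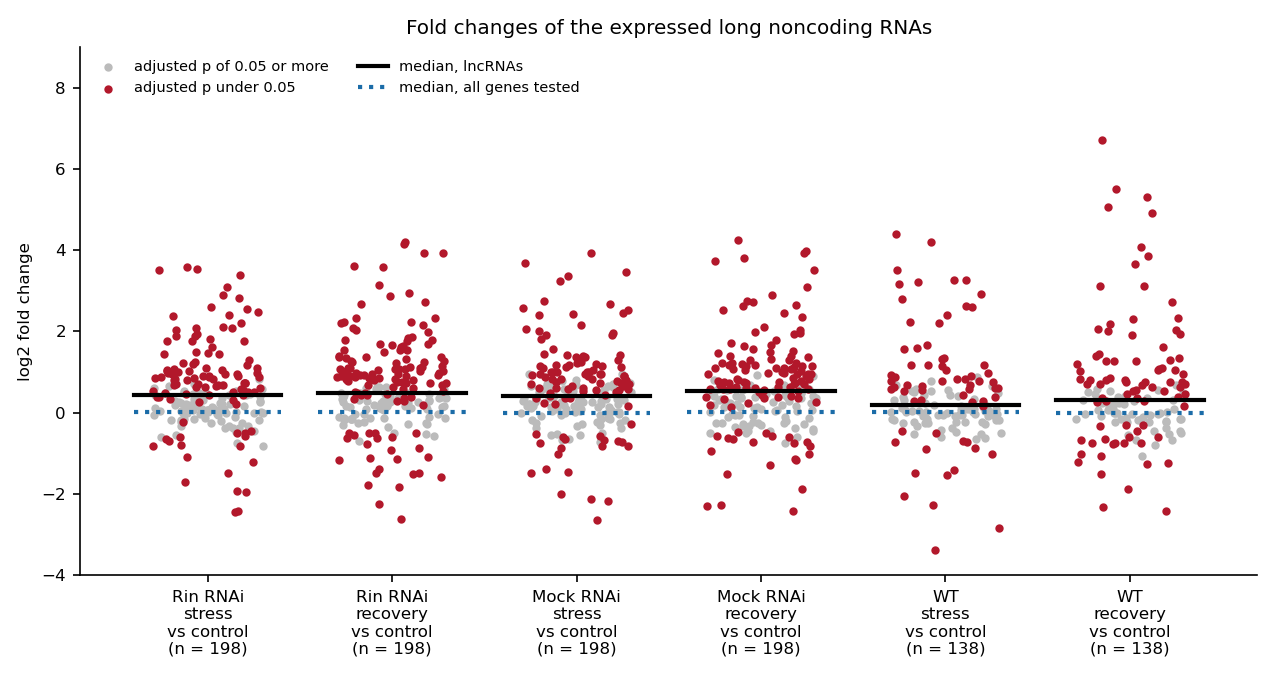
Log2 fold change (y axis) of every tested lncRNA, 1 point each, in stress and recovery against control for Rin RNAi, Mock RNAi and WT cells (x axis, with the number tested). Red points had an adjusted p under 0.05, the solid line is the median over the lncRNAs and the dotted line the median over all genes tested. In each of the 6 comparisons the solid line lies above the dotted one, by the most in Mock RNAi recovery (0.55 against 0.014).

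Of the 198 lncRNAs, 25 reached the limit only through reads from stress or recovery and so had to be higher there. Among the other 173, whose control reads would have passed on their own share of the limit, the Mock RNAi stress count was 70 higher and 20 lower and the Rin RNAi stress count 74 and 19. In recovery it was 79 and 21 in Mock RNAi and 86 and 24 in Rin RNAi cells. In WT cells, where 133 of them were tested, it was 47 and 15 in stress and 56 and 22 in recovery. The count also depends on scaling. With libraries scaled by total counts alone, the median of all genes in stress moved to -0.16 in Rin RNAi, -0.16 in Mock RNAi and -0.09 in WT cells, and in recovery to -0.25 in Rin RNAi, -0.23 in Mock RNAi and -0.18 in WT cells. The split of higher and lower lncRNAs then became 78 and 32 in Rin RNAi recovery, 68 and 29 in Mock RNAi stress, 68 and 35 in Mock RNAi recovery and 49 and 37 in WT recovery. Shares of all genes called under that scaling are not given, so these splits are not set against other genes.

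Of the 138 lncRNAs tested in all 3 kinds of cell, 41 rose in stress in all 3 and 7 fell in all 3, and 2 rose in one and fell in another. Of all 7985 genes tested in all 3, 18% rose in stress in each, 18.3% fell and 5.15% were called in opposite directions. In recovery 47 lncRNAs rose in all 3, 9 fell in all 3 and 5 were called in opposite directions, against 20.1%, 20.9% and 9.14% of all genes. Over both stages, 37 lncRNAs rose in all 6 comparisons, and 5 (CR46258, CR42491, CR45039, CR32773 and CR46090) fell in all 6, against 15.4% and 15.9% of all genes. The 37 include CR43651, CR44135, CR42767 and CR45635, which reached the limit only through stress or recovery reads. Their rises are a description with no test.

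Hsromega, the heat-shock omega RNA, rose in each kind of cell and was still high after recovery. It lies at chr3R:21296127-21317836, plus strand, and its exons hold the miRNA gene mir-4951. Hsromega in Rin RNAi cells was at 234, 216 and 205 CPM in control, 1211, 1152 and 1262 CPM in stress and 1472, 1368 and 1349.8 CPM in recovery. Hsromega in Mock RNAi cells was at 215, 206 and 203 CPM in control, 1083, 1128 and 1125 CPM in stress and 1270.1, 1261 and 1294 CPM in recovery. Hsromega in WT cells was at 88.8, 84.2 and 85.1 CPM in control, 639.6, 626 and 524 CPM in stress and 584, 574 and 559 CPM in recovery. Every stress and recovery library was above every control library of its set. The log2 fold changes in stress were 2.47 (SE 0.061, adjusted p = 2.18e-17) in Rin RNAi, 2.42 (SE 0.061, adjusted p = 3.02e-17) in Mock RNAi and 2.80 (SE 0.055, adjusted p = 7.63e-34) in WT cells (edgeR). In recovery they were 2.68 (SE 0.062, adjusted p = 2.67e-18) in Rin RNAi, 2.62 (SE 0.062, adjusted p = 5.29e-18) in Mock RNAi and 2.74 (SE 0.054, adjusted p = 3.36e-34) in WT cells. Recovery against stress gave 0.21 (SE 0.058, adjusted p = 0.0102) in Rin RNAi cells, a call that was lost without Rin recovery replicate 1 (adjusted p = 0.0705). The Mock RNAi value was 0.20 (SE 0.058, adjusted p = 0.0364), lost without Mock stress replicate 1 or 3 or any Mock recovery replicate (adjusted p from 0.0751 to 0.148), and both calls were lost with total-count scaling. In WT cells it gave -0.061 (SE 0.045, adjusted p = 0.344), which was not called. The omega transcripts contain a long array of short repeats, and reads that map to several places are not in these counts, so the levels describe the unique part of the gene.

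**Figure D2:**
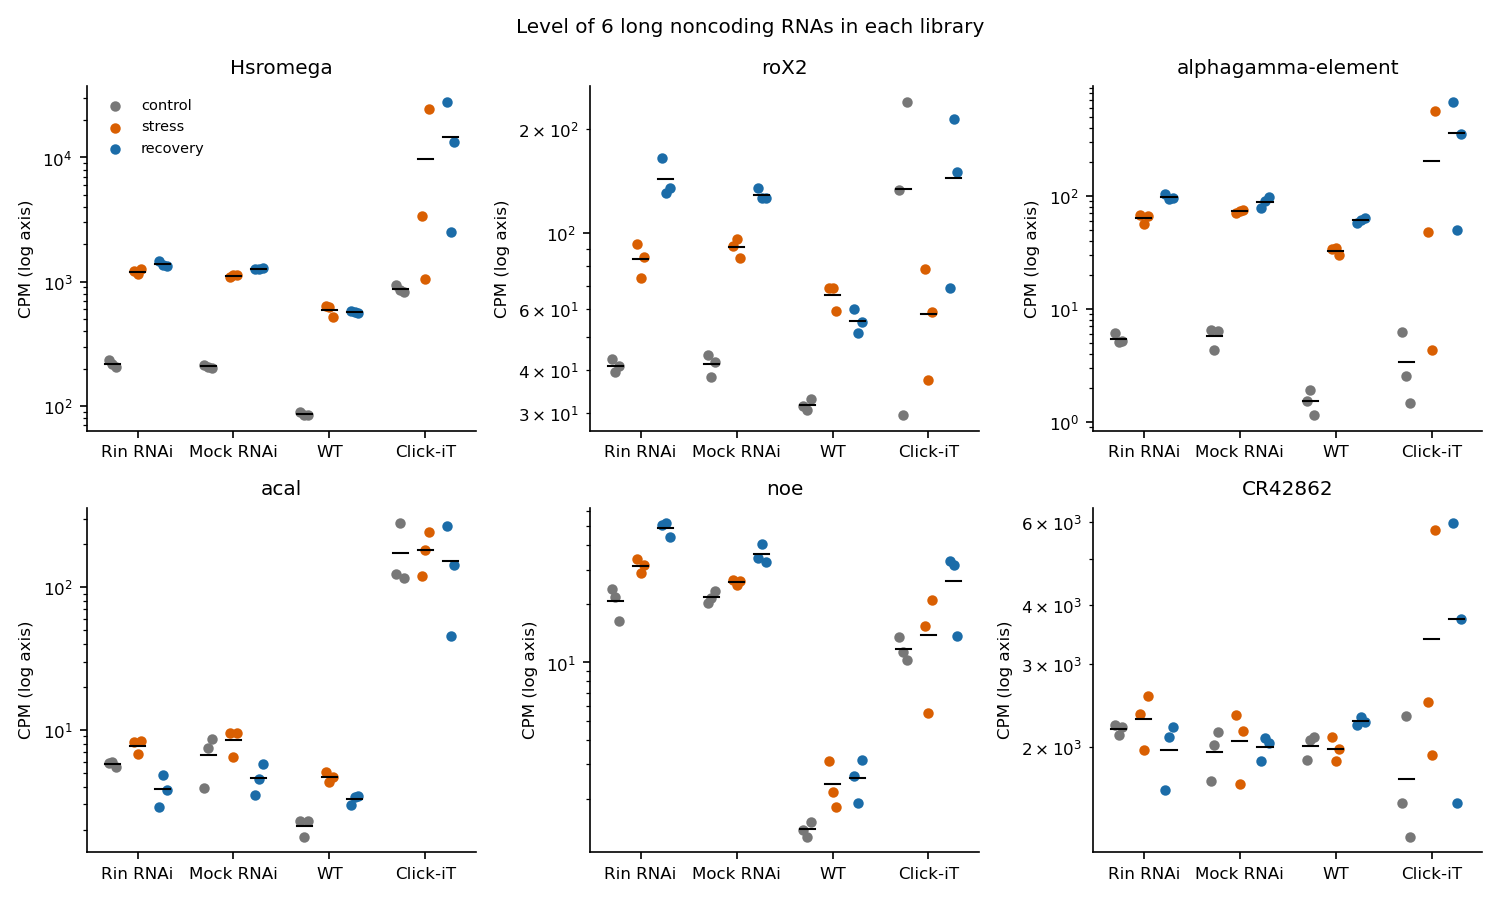
Level in CPM (y axis, log scale) of 6 lncRNAs in each library, by kind of cell (x axis) and stage (grey control, orange stress, blue recovery). Points are libraries and black bars are means of 3. Hsromega, roX2 and the alphagamma-element stand above their controls in Rin RNAi, Mock RNAi and WT stress and recovery, while CR42862 keeps near its control level (2015 CPM on average in WT control).

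The alphagamma-element (CR32865) had the largest rise of the 138 lncRNAs tested in WT stress. It is a noncoding repeat element of the 87C heat-shock locus, at chr3R:12475336-12478267, minus strand, 7.6 kb from Hsp70Ba and 24.2 to 30.8 kb from Hsp70Bbb, Hsp70Bb and Hsp70Bc. The element in Rin RNAi cells was at 6.03, 5.09 and 5.16 CPM in control, 66.7, 55.8 and 66.4 CPM in stress and 104, 92.4 and 94.9 CPM in recovery. The element in Mock RNAi cells was at 6.42, 4.29 and 6.35 CPM in control, 70.2, 73.1 and 75.2 CPM in stress and 77.5, 90.3 and 96.8 CPM in recovery. The element in WT cells was at 1.53, 1.91 and 1.14 CPM in control, 33.5, 34.7 and 29.6 CPM in stress and 57.6, 61.3 and 63.3 CPM in recovery. Control and treated libraries did not overlap in any set. In stress it rose by 3.54 (SE 0.13, adjusted p = 4.38e-15) in Rin RNAi, 3.69 (SE 0.13, adjusted p = 2.3e-15) in Mock RNAi and 4.41 (SE 0.16, adjusted p = 1.56e-24) in WT cells on the log2 scale. The values in recovery against control were 4.16 (SE 0.12, adjusted p = 1.21e-16) in Rin RNAi, 3.97 (SE 0.12, adjusted p = 3.02e-16) in Mock RNAi and 5.30 (SE 0.14, adjusted p = 2.37e-30) in WT cells. Recovery against stress gave 0.62 (SE 0.087, adjusted p = 9.96e-05) in Rin RNAi and 0.89 (SE 0.07, adjusted p = 8.19e-14) in WT cells. The Mock RNAi value was 0.28 (SE 0.087, adjusted p = 0.0489), which was lost without Mock stress replicate 1 or 3 or Mock recovery replicate 2 or 3 (adjusted p from 0.116 to 0.181). Copies of the element that share sequence drop out of the counts as reads with several places.

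Listed Hsp70 genes and their partners moved the same way where tested. The list holds the Hsp70 copies, Hsp68, Hsp83 and Hsf, and not all lie near the alphagamma-element. Hsp70Aa and Hsp70Ab are 518.8 and 514.4 kb from it. Of the 9 genes listed, 7 were tested, and all 7 rose in each of the 6 comparisons with control. Of all genes tested, 29% to 35.2% rose in these comparisons. Hsp70Ba, a cytosolic chaperone gene, had log2 fold changes in stress of 2.14 (SE 0.34, adjusted p = 1.56e-05) in Rin RNAi, 2.35 (SE 0.39, adjusted p = 2.7e-05) in Mock RNAi and 3.65 (SE 0.31, adjusted p = 4.43e-13) in WT cells. In recovery Hsp70Ba had 4.23 in Rin RNAi, 4.46 in Mock RNAi and 6.66 in WT cells. Hsf, the heat-shock transcription factor, rose by 1.25 in Rin RNAi, 1.16 in Mock RNAi and 1.06 in WT cells in stress. The Hsp70 copies are nearly identical, so the split of reads among them is uncertain.

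roX2 rose in stress in all 3 kinds of cell, and in recovery it rose again in Rin and Mock RNAi cells while in WT cells it fell relative to stress. It is 1 of the 2 RNA subunits of the male-specific lethal complex and lies at chrX:11579065-11580432, plus strand. roX2 in Rin RNAi cells was at 43.1, 39.5 and 41.1 CPM in control, 92.5, 74.2 and 85.0 CPM in stress and 165, 131 and 135 CPM in recovery. roX2 in Mock RNAi cells was at 44.3, 38.3 and 42.2 CPM in control, 91.6, 96.2 and 84.5 CPM in stress and 135, 126 and 127 CPM in recovery. roX2 in WT cells was at 31.4, 30.7 and 32.9 CPM in control, 69.1, 69.3 and 59.3 CPM in stress and 60.0, 51.4 and 55.2 CPM in recovery. The 3 stages did not overlap in Mock RNAi cells, where recovery was highest, and in WT cells the recovery libraries lay above control, with 1 of them at 60.0 CPM, above the lowest stress library. The log2 fold changes in stress were 1.03 (SE 0.092, adjusted p = 7.36e-09) in Rin RNAi, 1.13 (SE 0.094, adjusted p = 2.34e-09) in Mock RNAi and 1.06 (SE 0.073, adjusted p = 6.91e-16) in WT cells. Recovery against stress gave 0.77 (SE 0.086, adjusted p = 9.53e-06) in Rin RNAi, 0.51 (SE 0.086, adjusted p = 0.0013) in Mock RNAi and -0.25 (SE 0.064, adjusted p = 0.00273) in WT cells. The other RNA subunit, roX1, held 65 reads over the 27 libraries and was not among the 198. CG11695, which ends 259 bp upstream of roX2 on the same strand, had a log2 fold change of -0.16 (adjusted p = 0.135) in WT stress.

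Most genes for protein partners of roX2 did not rise with it. Of 9 dosage compensation genes listed, 7 were in the files and tested. In stress 5 fell and none rose in Rin RNAi cells, 5 fell and 1 rose in Mock RNAi cells and 4 fell and none rose in WT cells. In recovery 7 fell in Rin RNAi cells, 6 in Mock RNAi cells and 4 in WT cells, and none rose. Of all genes tested in Rin RNAi, Mock RNAi and WT cells, 30.8%, 29.8% and 30% fell in stress and 30.4%, 29% and 30.3% rose. In recovery 34.3%, 32.8% and 33.5% of them fell and 35.2%, 33.1% and 35.2% rose. msl-2, the male-specific subunit, had log2 fold changes in recovery of -0.58 (SE 0.10, adjusted p = 2.24e-05) in Rin RNAi, -0.55 (SE 0.10, adjusted p = 3.73e-05) in Mock RNAi and -0.23 (SE 0.08, adjusted p = 0.0112) in WT cells. The RNA helicase gene mle, whose product remodels roX RNA, had 0.10 (SE 0.071, adjusted p = 0.217) in Rin RNAi, 0.25 (SE 0.073, adjusted p = 0.00543) in Mock RNAi and -0.25 (SE 0.047, adjusted p = 1.67e-05) in WT cells in stress, so it was called in opposite directions in Mock RNAi and WT cells.

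noe rose in recovery in each kind of cell, and in WT cells its calls rested on single libraries. noe, at chr3L:17400272-17401348, minus strand, lies inside the span of the transporter gene blot on the same strand. noe in Rin RNAi cells was at 23.9, 21.6 and 16.3 CPM in control, 33.8, 28.8 and 31.6 CPM in stress and 50.9, 52.0 and 44.3 CPM in recovery. noe in Mock RNAi cells was at 20.1, 21.3 and 23.4 CPM in control, 26.5, 25.0 and 26.3 CPM in stress and 34.6, 40.5 and 32.8 CPM in recovery. noe in WT cells was at 1.37, 1.27 and 1.52 CPM in control, 3.13, 2.15 and 1.81 CPM in stress and 2.61, 1.89 and 3.16 CPM in recovery, so that its WT control level was far below the others, although levels were scaled within each set. In recovery noe rose by 1.26 (SE 0.11, adjusted p = 2.55e-09) in Rin RNAi and 0.74 (SE 0.11, adjusted p = 7.36e-06) in Mock RNAi cells on the log2 scale. In WT cells the stress value 0.77 (SE 0.33, adjusted p = 0.04) was lost without any WT control replicate or WT stress replicate 1 (adjusted p from 0.0636 to 0.252), and the recovery value 0.86 (SE 0.31, adjusted p = 0.015) was lost without WT control replicate 2 or WT recovery replicate 3 (0.0548 and 0.0869). blot itself had 1.01 (adjusted p = 5.86e-11) in WT stress.

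acal, a negative regulator of JNK signalling in the embryo, rose in WT stress and was lower in recovery than in stress in Rin and Mock RNAi cells. It lies at chr2R:10544925-10547260, minus strand. acal in Rin RNAi cells was at 5.83, 5.99 and 5.46 CPM in control, 8.17, 6.78 and 8.35 CPM in stress and 2.88, 4.86 and 3.82 CPM in recovery. acal in Mock RNAi cells was at 3.93, 7.43 and 8.60 CPM in control, 9.44, 6.45 and 9.46 CPM in stress and 3.50, 4.52 and 5.74 CPM in recovery. acal in WT cells was at 2.29, 1.78 and 2.28 CPM in control, 5.04, 4.31 and 4.67 CPM in stress and 2.97, 3.40 and 3.44 CPM in recovery. The log2 fold change in stress was 1.14 (SE 0.24, adjusted p = 6.58e-05) in WT cells. It was 0.43 (SE 0.22, adjusted p = 0.0966) in Rin RNAi and 0.38 (SE 0.22, adjusted p = 0.145) in Mock RNAi cells, neither of which was called. In recovery acal was lower than in stress in Rin RNAi cells, with -1.004 (SE 0.25, adjusted p = 0.00578) on the log2 scale and no overlap. In Mock RNAi cells it was -0.88 (SE 0.24, adjusted p = 0.0251), lost without Mock stress replicate 1 or 3 or Mock recovery replicate 1 or 2 (adjusted p from 0.0678 to 0.123), and in WT cells -0.51 (SE 0.21, adjusted p = 0.0653), not called. acal in WT recovery against control was 0.63 (SE 0.25, adjusted p = 0.0272), lost without WT control replicate 2 or WT recovery replicate 2 or 3 (0.0671 to 0.12).

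The lncRNA with the most reads changed little. CR42862, at chr3L:224106-230964, plus strand, averaged 2184 ± 58.2 CPM in control, 2296 ± 299.9 CPM in stress and 1976 ± 314 CPM in recovery in Rin RNAi cells (SD, n = 3 each). CR42862 in Mock RNAi cells averaged 1955 ± 232 CPM in control, 2056 ± 345 CPM in stress and 1997 ± 117 CPM in recovery. CR42862 in WT cells averaged 2015 ± 119 CPM in control, 1983 ± 115 CPM in stress and 2269.8 ± 41.5 CPM in recovery. Of these contrasts with control, WT recovery alone was called, at 0.17 (SE 0.036, adjusted p = 6.99e-05), and it turned to -0.0046 with total-count scaling.

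CR43334 rose in stress and recovery in Rin RNAi, Mock RNAi and WT cells. It spans chr3L:628435-643900, plus strand and is the precursor of bantam, a miRNA that promotes growth and blocks cell death. It averaged 467 ± 24.1 CPM in control, 923 ± 136 CPM in stress and 977 ± 25.1 CPM in recovery in Rin RNAi cells. CR43334 in Mock RNAi cells averaged 467 ± 25.5 CPM in control, 938 ± 54.6 CPM in stress and 932 ± 22.3 CPM in recovery. CR43334 in WT cells averaged 554 ± 33.3 CPM in control, 721 ± 48.5 CPM in stress and 757 ± 21.1 CPM in recovery. The stress values were 0.98 (SE 0.081, adjusted p = 1.89e-09) in Rin RNAi, 1.00 (SE 0.081, adjusted p = 1.52e-09) in Mock RNAi and 0.38 (SE 0.041, adjusted p = 2e-10) in WT cells.

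A few short X-linked lncRNAs stood out by level. CR43264, 318 nt long at chrX:5831898-5832215, minus strand, averaged 404 ± 58.5 CPM in control, 799 ± 87.4 CPM in stress and 1294 ± 29.4 CPM in recovery in Rin RNAi cells. CR43264 in Mock RNAi cells averaged 442 ± 49.0 CPM in control, 891 ± 255 CPM in stress and 1156 ± 45.0 CPM in recovery, and in WT cells 31.2 ± 1.59 CPM in control, 55.1 ± 4.34 CPM in stress and 48.1 ± 4.60 CPM in recovery. It rose in stress by 0.98 (SE 0.14, adjusted p = 3.58e-06) in Rin RNAi, 1.01 (SE 0.14, adjusted p = 2.82e-06) in Mock RNAi and 0.83 (SE 0.076, adjusted p = 3.25e-12) in WT cells. In Rin RNAi cells it rose again in recovery, by 0.70 (SE 0.14, adjusted p = 0.00123) against stress. In WT cells the same contrast was -0.20 (SE 0.069, adjusted p = 0.0302), a fall that was lost without WT stress replicate 2 or WT recovery replicate 3 (adjusted p = 0.19 and 0.232). CR34335 (361 nt) and CR40469 (214 nt), also on X, had 1.80 (SE 0.22, adjusted p = 2.64e-07) and 1.65 (SE 0.25, adjusted p = 7.39e-06) in Rin RNAi recovery. In Mock RNAi recovery they had 1.23 (SE 0.21, adjusted p = 3.5e-05) and 1.09 (SE 0.25, adjusted p = 0.000741). Their Rin RNAi stress values, 0.72 (SE 0.21, adjusted p = 0.00621) and 0.82 (SE 0.25, adjusted p = 0.00845), were lost without Rin control replicate 3 (0.0532 and 0.063), and that of CR40469 also without Rin stress replicate 3 (0.0584). In WT cells both were lower in recovery than in stress. With 1 library left out, that WT contrast was -0.46 to -0.23 for CR34335 and -0.37 to -0.14 for CR40469. The CR40469 call was lost without WT stress replicate 2 or WT recovery replicate 1 or 2. WT recovery against control was 0.16 to 0.39 for CR34335 and 0.40 to 0.63 for CR40469 in such fits. The CR34335 call was lost there without WT recovery replicate 3.

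CR42549, CR43459 and CR45334 were also among the 10 highest in CPM. CR42549, at chr3R:9548104-9551806, minus strand, rose by 0.85 in Rin RNAi, 0.88 in Mock RNAi and 0.78 in WT cells on the log2 scale in stress. CR43459, at chr3R:10093761-10101356, plus strand, rose in stress by 0.71 (SE 0.18, adjusted p = 0.00163) in Rin RNAi, 0.82 (SE 0.18, adjusted p = 0.000555) in Mock RNAi and 0.28 (SE 0.07, adjusted p = 0.000591) in WT cells. Its recovery values were 0.27 (SE 0.18, adjusted p = 0.184) in Rin RNAi, not called, 0.58 (SE 0.18, adjusted p = 0.00783) in Mock RNAi, lost without Mock control replicate 1 (adjusted p = 0.0533), and 0.079 (SE 0.07, adjusted p = 0.322) in WT cells, not called. CR45334, at chr2L:21929064-21931698, plus strand, changed by 0.28 (SE 0.056, adjusted p = 0.000169) in Rin RNAi recovery, 0.23 (SE 0.056, adjusted p = 0.00134) in Mock RNAi recovery and 0.15 (SE 0.056, adjusted p = 0.0256) in Mock RNAi stress, and these values turned to -0.0011, -0.015 and -0.0146 with total-count scaling. Its Mock RNAi stress call was also lost without Mock control replicate 2 or 3 or Mock stress replicate 3 (adjusted p from 0.0705 to 0.0866).

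Most precursors of miRNAs rose, a grouping made from the annotation after their values were seen. Exons of 12 of the 198 lncRNAs hold an annotated miRNA gene on the same strand. Among them is CR43651, which reached the limit only through stress and recovery reads and so had to be higher there. It is included in the counts and medians of the 12 below, where its rise is no test result. Counts and medians without it are not given. The lncRNAs with no miRNA gene also include some that entered in this way. In Rin RNAi cells 11 of the 12 rose and none fell, in stress and again in recovery. Of the 186 lncRNAs with no miRNA gene, 77 rose and 19 fell there in stress and 92 rose and 24 fell in recovery, and of all genes 30.4% rose in stress and 35.2% in recovery. In Mock RNAi cells 11 of the 12 rose in stress and 12 in recovery, against 71 and 85 of the 186 others and 29% and 33.1% of all genes. In WT cells 10 of the 12 rose at each stage and none fell, against 41 and 51 of the 126 others tested and 30.3% and 35.2% of all genes. Their median log2 fold changes in stress were 1.59 in Rin RNAi, 1.63 in Mock RNAi and 2.32 in WT cells. Over the lncRNAs with no miRNA gene they were 0.39 in Rin RNAi, 0.37 in Mock RNAi and 0.10 in WT cells. The counts describe the precursor transcripts that carry poly(A), and mature miRNAs were not measured.

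CR31044, at chr3R:29214562-29219667, plus strand, holds mir-279 and mir-996, a cluster known from the development of sensory neurons. CR31044 in Rin RNAi cells was at 30.5, 28.6 and 25.6 CPM in control, 357, 292 and 368 CPM in stress and 366, 454 and 463 CPM in recovery. CR31044 in Mock RNAi cells was at 29.6, 27.5 and 29.0 CPM in control, 334, 302 and 319 CPM in stress and 355, 411 and 430.3 CPM in recovery. CR31044 in WT cells was at 13.1, 15.5 and 15.6 CPM in control, 179.8, 164 and 167 CPM in stress and 215, 211 and 215 CPM in recovery. Every treated library was above every control library. The log2 fold changes in stress were 3.59 (SE 0.11, adjusted p = 4.11e-16) in Rin RNAi, 3.47 (SE 0.11, adjusted p = 7.01e-16) in Mock RNAi and 3.52 (SE 0.067, adjusted p = 4.48e-34) in WT cells, and in recovery 3.92 in Rin RNAi, 3.80 in Mock RNAi and 3.85 in WT cells.

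CR43626, which holds mir-282 at chr3L:3249340-3254504, plus strand, went on rising in recovery. CR43626 in Rin RNAi cells was at 10.4, 10.9 and 9.52 CPM in control, 119.6, 93.4 and 109 CPM in stress and 154, 155 and 163 CPM in recovery. CR43626 in Mock RNAi cells was at 13.0, 10.3 and 9.40 CPM in control, 103, 105 and 107 CPM in stress and 143, 147 and 153 CPM in recovery. CR43626 in WT cells was at 4.73, 5.85 and 3.42 CPM in control, 45.9, 41.3 and 39.1 CPM in stress and 78.2, 77.8 and 80.1 CPM in recovery. The 3 stages did not overlap in any set. Recovery against stress gave 0.55 (SE 0.076, adjusted p = 9.42e-05) in Rin RNAi, 0.49 (SE 0.076, adjusted p = 0.000631) in Mock RNAi and 0.90 (SE 0.065, adjusted p = 6.34e-15) in WT cells.

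CR43651 holds mir-14, a miRNA that limits cell death and fat storage, at chr2R:9552844-9553940, plus strand. It reached the limit of 200 reads only through stress and recovery libraries, so its log2 fold changes in stress, 3.51 in Rin RNAi, 3.37 in Mock RNAi and 3.25 in WT cells, are given with no test. Its WT control level was 0.458, 0.254 and 0.38 CPM. CR43857, with mir-275, rose by 2.60 in Rin RNAi, 2.68 in Mock RNAi and 2.41 in WT cells. CR44206, with mir-184 at chr2R:13329352-13344808, minus strand, rose by 2.20 in Rin RNAi, 1.90 in Mock RNAi and 2.60 in WT cells, and in WT cells it was lower again in recovery than in stress, with -0.60 (SE 0.12, adjusted p = 0.000152). CR46194, with the mir-281 genes, had 0.81 (SE 0.20, adjusted p = 0.0014) in Rin RNAi, 1.15 (SE 0.22, adjusted p = 0.000129) in Mock RNAi and 0.19 (SE 0.20, adjusted p = 0.438) in WT cells in stress, of which the WT value was not called. In recovery it rose by 1.48 (SE 0.19, adjusted p = 5.11e-07) in Rin RNAi, 1.95 (SE 0.19, adjusted p = 2.24e-08) in Mock RNAi and 2.17 (SE 0.15, adjusted p = 2.03e-16) in WT cells. CR43650, the precursor of mir-8, rose by 0.63 in Rin RNAi, 0.83 in Mock RNAi and 0.69 in WT cells in stress. CR31451, annotated as mimi, with mir-9381, was not called in stress in any of the 3 sets, at 0.14 in Rin RNAi, 0.094 in Mock RNAi and -0.08 in WT cells.

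**Figure D3:**
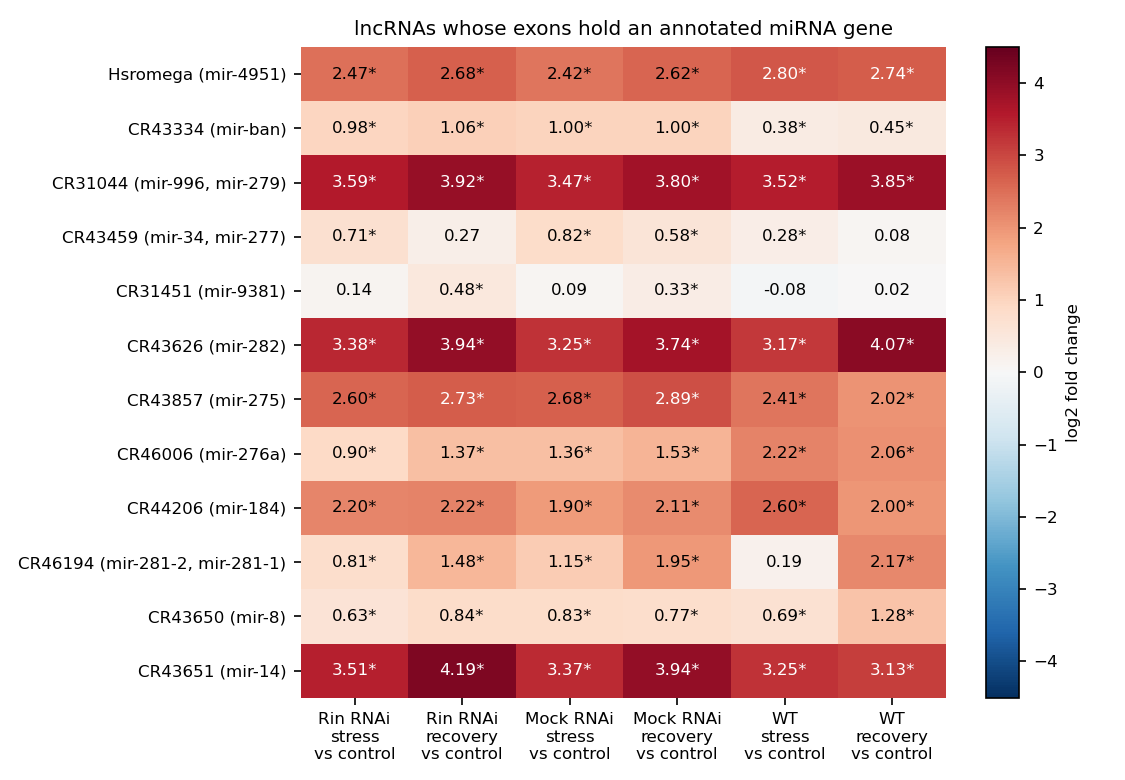
Log2 fold change (colour and printed value) of the 12 lncRNAs whose exons hold an annotated miRNA gene (rows, with the miRNA genes in parentheses) in stress and recovery against control for Rin RNAi, Mock RNAi and WT cells (columns). A star marks an adjusted p under 0.05. No value with a star is below 0, and the highest are those of CR43651, CR43626 and CR31044. CR43651 entered only through stress and recovery reads, so its stars are no test result.

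Other lncRNAs rose from near the floor of detection, several of them mainly in recovery. CR43432, annotated as marge, at chr3L:14976626-14977631, minus strand, was at 0, 0.636 and 0.127 CPM in control, 3.95, 6.33 and 5.28 CPM in stress and 31.3, 30.3 and 27.8 CPM in recovery in WT cells. It had log2 fold changes in recovery of 3.62 (SE 0.21, adjusted p = 5.28e-12) in Rin RNAi, 3.52 (SE 0.22, adjusted p = 1.74e-11) in Mock RNAi and 6.71 (SE 0.25, adjusted p = 1.39e-24) in WT cells. Against stress, its recovery value in WT cells was 2.51 (SE 0.14, adjusted p = 1.1e-18), and no library of the 2 stages overlapped. Its WT control level was near 0, and without WT control replicate 2 the WT recovery value was 8.44.

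CR45380, a 317 nt RNA whose start lies 655 bp downstream of PHGPx, a glutathione peroxidase gene, rose most in recovery. CR45380 in WT cells was at 0.763, 0.891 and 0.886 CPM in control, 7.49, 7.85 and 8.75 CPM in stress and 37.0, 38.3 and 43.4 CPM in recovery. Its recovery values were 2.93 (SE 0.27, adjusted p = 4.86e-09) in Rin RNAi, 2.74 (SE 0.27, adjusted p = 1.71e-08) in Mock RNAi and 5.51 (SE 0.17, adjusted p = 1.3e-27) in WT cells. PHGPx itself had 0.53 (adjusted p = 3.02e-16) in WT stress.

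CR44830 had the largest WT rise between stress and recovery. CR44830 in WT cells was at 0.458, 0.382 and 0.127 CPM in control, 0.817, 0.887 and 1.21 CPM in stress and 10.6, 10.7 and 11.8 CPM in recovery, which gave 3.50 (SE 0.23, adjusted p = 5.37e-16) for recovery against stress. Its rise in WT stress, 1.56 (SE 0.55, adjusted p = 0.0136), was lost without WT control replicate 3 or WT stress replicate 3 (adjusted p = 0.0905 and 0.0546). In recovery it rose by 1.83 in Rin RNAi, 1.71 in Mock RNAi and 5.06 in WT cells.

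CR44135, CR42767 and CR45635 each start within 400 bp of the 3' end of a gene on the same strand. All of them are among the 25 lncRNAs that reached the limit only through stress or recovery reads, so their folds are a description with no test. CR44135 lies 396 bp from CG18547 and had log2 fold changes in stress of 3.09 in Rin RNAi, 3.92 in Mock RNAi and 2.62 in WT cells, with 3.82 in Rin RNAi when Rin control replicate 1 was left out. CR42767, 199 bp from Cubn, had 2.39 in Rin RNAi, 2.57 in Mock RNAi and 3.26 in WT cells. CR45635, 132 bp from CG5399, had 4.91 in WT recovery and 1.82 in Mock RNAi stress, where it was 1.13 without Mock stress replicate 1. The upstream genes rose in WT stress, by 0.45 (adjusted p = 1.97e-07) for CG18547, 0.86 (adjusted p = 3.4e-17) for Cubn and 0.94 (adjusted p = 3.05e-20) for CG5399. Whether reads past the end of those genes add to these lncRNAs was not tested.

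Fewer lncRNAs fell, and the deepest falls were in RNAs of low level. CR42491, at chrX:762615-763810, minus strand, was at 5.95, 5.22 and 6.33 CPM in control, 0.545, 0.38 and 0.754 CPM in stress and 1.19, 1.64 and 1.92 CPM in recovery in WT cells. Its log2 fold changes in stress were -1.93 (SE 0.24, adjusted p = 6.05e-07) in Rin RNAi, -1.49 (SE 0.23, adjusted p = 1.02e-05) in Mock RNAi and -3.37 (SE 0.32, adjusted p = 5.2e-12) in WT cells. It shares 50.5% of its exonic bases with RpL22, a ribosomal protein gene on the same strand, which rose in WT stress by 0.38 (adjusted p = 5.5e-11). In WT recovery it partly came back, by 1.49 (SE 0.43, adjusted p = 0.00788) against stress, a call lost without WT stress replicate 2 (adjusted p = 0.0575).

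CR45039, at chr3R:26006502-26007073, minus strand, fell and stayed low. CR45039 in Rin RNAi cells was at 2.15, 2.99 and 2.48 CPM in control, 0.837, 0.104 and 0.454 CPM in stress and 0.345, 0.324 and 0.566 CPM in recovery. CR45039 in Mock RNAi cells was at 4.31, 2.57 and 2.78 CPM in control, 0.22, 0.744 and 0.606 CPM in stress and 0.742, 0.753 and 0.503 CPM in recovery. CR45039 in WT cells was at 5.95, 5.85 and 7.97 CPM in control, 1.23, 1.90 and 0.905 CPM in stress and 1.07, 1.13 and 1.51 CPM in recovery. Stress values were -2.42 (SE 0.39, adjusted p = 2.24e-05) in Rin RNAi, -2.64 (SE 0.39, adjusted p = 6.97e-06) in Mock RNAi and -2.26 (SE 0.26, adjusted p = 8.14e-10) in WT cells, and recovery values -2.63 in Rin RNAi, -2.27 in Mock RNAi and -2.42 in WT cells. The Rin RNAi stress value was -3.07 without Rin stress replicate 1.

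CR46258, CR32773 and CR46090 fell in all 6 comparisons as well. CR46258 shares exonic bases with ush, which encodes a GATA cofactor of hemocytes, and had -1.48 (SE 0.22, adjusted p = 6.52e-06) in Rin RNAi, -1.45 (SE 0.24, adjusted p = 2.9e-05) in Mock RNAi and -1.54 (SE 0.16, adjusted p = 1.26e-10) in WT cells in stress, while ush rose in WT stress by 0.66 (adjusted p = 2.21e-17). CR32773 had -1.70 in Rin RNAi, -1.37 in Mock RNAi and -1.49 in WT cells in stress, and CR46090, inside the ETS factor gene pnt, had -1.95 in Rin RNAi, -2.12 in Mock RNAi and -1.40 in WT cells. The WT recovery call of CR46090, -1.22 (SE 0.38, adjusted p = 0.00505), was lost without WT recovery replicate 1 (adjusted p = 0.0694) and was -1.82 without WT recovery replicate 3.

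CR45981, inside the peroxidasin gene Pxn, fell in Rin RNAi stress, with -2.45 (SE 0.44, adjusted p = 6.84e-05), and in WT stress, with -2.83 (SE 0.36, adjusted p = 1.07e-08), and was not called in Mock RNAi stress at -0.61 (SE 0.40, adjusted p = 0.196). CR46271 was too low to test in WT cells and fell in recovery, with -1.58 (SE 0.36, adjusted p = 0.00062) in Rin RNAi and -2.42 (SE 0.40, adjusted p = 2.25e-05) in Mock RNAi cells. CR45567 had -0.56 (SE 0.31, adjusted p = 0.135) in Rin RNAi stress, not called, and fell in Mock RNAi stress, with -2.18 (SE 0.40, adjusted p = 0.000106). CR45566 was called in opposite directions in WT and RNAi cells. It overlaps RpL4 and mino on the opposite strand and had 2.89 (SE 0.56, adjusted p = 0.000162) in Rin RNAi stress, 1.37 (SE 0.39, adjusted p = 0.00471) in Mock RNAi stress and -2.06 (SE 0.41, adjusted p = 4e-05) in WT stress. In the same WT contrast RpL4 had 0.37 (adjusted p = 1.95e-13) and mino -0.64 (adjusted p = 5.43e-14).

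Between stress and recovery most lncRNAs did not pass the test. In Rin RNAi cells 33 were higher in recovery than in stress and 6 lower, where 14.2% and 16.2% of all genes were. In Mock RNAi cells 14 were higher and 2 lower, against 5.02% and 4.31% of all genes. In WT cells 22 were higher and 15 lower of 138, against 18.2% and 8.33%. With total-count scaling the splits were 18 and 12 in Rin RNAi, 10 and 7 in Mock RNAi and 20 and 24 in WT cells, so that in WT cells the majority turned. No share of all genes is given for that scaling. Of the lncRNAs that rose in stress, 26 in Rin RNAi, 11 in Mock RNAi and 11 in WT cells rose again in recovery. None fell back in Rin or Mock RNAi cells, and 10 did in WT cells. Shares of all genes with these 2 patterns are not given, so the counts are not shown to be particular to lncRNAs. The Mock RNAi total of 16 fell to 7 without Mock stress replicate 1 or 3, to 9 and 10 without Mock recovery replicate 2 or 3, and rose to 33 without Mock stress replicate 2. The Rin RNAi total of 39 fell to 24 without Rin stress replicate 3 and to 23 without Rin recovery replicate 1.

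Among those higher in recovery than in stress were CR34335 with 1.07 (SE 0.21, adjusted p = 0.00116) and CR43432 with 1.07 (SE 0.15, adjusted p = 9.5e-05) in Rin RNAi cells. In Mock RNAi cells CR43432 had 1.11 (SE 0.16, adjusted p = 0.000266), CR46194 0.79 (SE 0.17, adjusted p = 0.00655) and CR43900 0.71 (SE 0.14, adjusted p = 0.00427). CR45805, which reached the limit of 200 reads only through its recovery reads, had 1.49 in Rin RNAi and 1.09 in Mock RNAi cells, given with no test. CR43256 was also called in Mock RNAi cells, at 0.99, and was lost without Mock stress replicate 1 or 3 or any Mock recovery replicate (adjusted p from 0.0626 to 0.212). CR45251 and CR40469 in Rin RNAi cells had 0.86 and 0.83, both lost without Rin stress replicate 2 (0.0724 and 0.073) and CR45251 also without Rin recovery replicate 1 (0.182).

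Among those lower in recovery than in stress, CR43837 had -0.79 (SE 0.20, adjusted p = 0.006) in Rin RNAi cells. CR44779 had -0.60 (SE 0.12, adjusted p = 9.46e-05) in WT cells. In Rin RNAi cells CR44779 had -0.38 (SE 0.10, adjusted p = 0.00911), lost without Rin stress replicate 3 or Rin recovery replicate 1 (0.0653 and 0.0678). Its Mock RNAi value was -0.36 (SE 0.11, adjusted p = 0.0411), lost without Mock stress replicate 1 or 3 or Mock recovery replicate 1 or 2 (0.107 to 0.174). CR44441 and CR44320 in Rin RNAi cells, at -1.10 and -1.05, were each lost without Rin stress replicate 1 or 3 or Rin recovery replicate 1 or 2, and CR44320 also without Rin recovery replicate 3 (0.0605 to 0.15). In WT cells CR45362 had -1.18 (SE 0.34, adjusted p = 0.00652), lost without WT recovery replicate 2 (0.0501), and CR43496 -0.42 (SE 0.12, adjusted p = 0.00762), lost without WT recovery replicate 1 (0.0965). CR43857 had -0.39, lost without WT stress replicate 1 or 2 or WT recovery replicate 2 or 3 (0.0693 to 0.149).

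Between Rin RNAi and Mock RNAi cells no lncRNA was called by edgeR with its filter on low counts. Of 198, none passed in Rin RNAi against Mock RNAi control, stress or recovery, where 0.0459%, 0.161% and 0.126% of all genes did. At an unadjusted p under 0.05 there were 13, 22 and 11 lncRNAs in control, stress and recovery, against 7.45%, 8.48% and 11.5% of all genes. None passed for the difference between the Rin RNAi and Mock RNAi responses either, for which 0% of all genes were called, and 7 in stress and 12 in recovery had an unadjusted p under 0.05, against 3.39% and 8.72% of all genes. DESeq2 called 1 lncRNA in stress, 1 in recovery and none in control, and edgeR with no filter on low counts called 3 in stress, 5 in recovery and 1 in control.

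The difference between the Rin RNAi and Mock RNAi log2 responses had a median size of 0.20 in stress and 0.24 in recovery, with a median SE of 0.35 at each stage. It was within 1 by 2 SE on either side for 111 of 198 lncRNAs in stress and 114 in recovery, and it was 1 or more for 5 at each stage. The stress responses of Hsromega differed by 0.05 (SE 0.083, adjusted p = 1) and its recovery responses by 0.062 (SE 0.083, adjusted p = 0.801). The stress responses of roX2 differed by -0.10 (SE 0.13, adjusted p = 1) and its recovery responses by 0.17 (SE 0.13, adjusted p = 0.662). Both sets of responses have their own libraries, and across the 198 lncRNAs Pearson's r was 0.91 for stress and 0.93 for recovery, which is a description across genes.

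**Figure D4:**
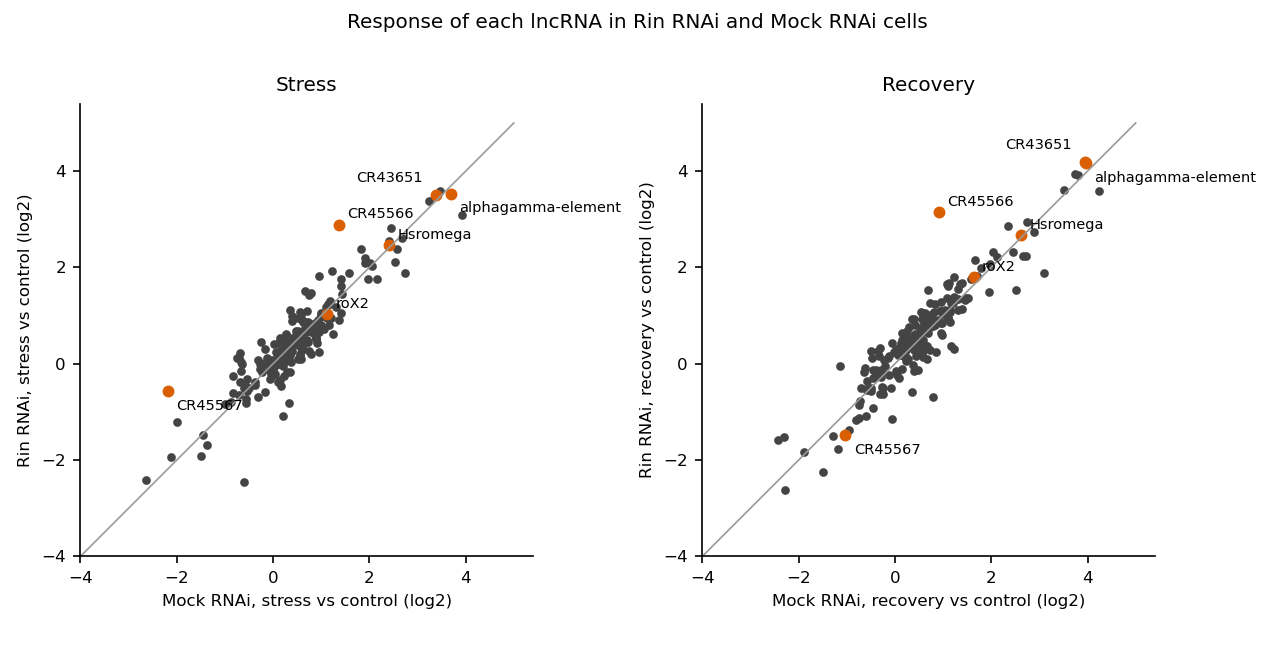
Log2 fold change against control of each of the 198 lncRNAs (points) in Mock RNAi (x axis) and Rin RNAi cells (y axis), in stress (left) and recovery (right), with the line of equal response. The points follow the line (r = 0.91 and 0.93), and the labelled CR45566 lies farthest above it in recovery.

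The lncRNAs nearest to a call between Rin RNAi and Mock RNAi cells were few. CR45102 had 69.5, 56.1 and 80.7 CPM in Rin RNAi stress and 93.5, 95.2 and 99.7 CPM in Mock RNAi stress, with no overlap. The log2 difference was -0.48 (SE 0.11, adjusted p = 0.112), not called, while the adjusted p was 0.0269 with DESeq2, 0.0449 in edgeR without Rin stress replicate 3 and 1.42e-06 in edgeR with no filter on low counts. noe had 50.9, 52.0 and 44.3 CPM in Rin RNAi recovery and 34.6, 40.5 and 32.8 CPM in Mock RNAi recovery, a difference of 0.45 (SE 0.10, adjusted p = 0.0918) that was not called but passed in a fit of those groups alone (adjusted p = 0.0192) and with no filter on low counts (adjusted p = 8.78e-05). CR44953 in recovery differed by -0.27 (SE 0.068, adjusted p = 0.129), which DESeq2 called (adjusted p = 0.0473). CR46006, with mir-276a, differed in stress by -0.43 (SE 0.12, adjusted p = 0.207). In control the lowest p-values were those of CR43423 at -0.39 (SE 0.12, adjusted p = 0.415) and CR45566 at -2.06 (SE 0.65, adjusted p = 0.435). Among the differences of response they were those of CR45737 (0.76) and CR45567 (1.62) in stress and of CR45949 (-0.44) and CR43837 (-0.95) in recovery, none of them called.

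The Click-iT captures held many of the same lncRNAs, with replicates far apart. Of 198, 74 passed the filter on low counts, and none was called in stress or recovery against control or in recovery against stress, where 0% of all genes were called too. At an unadjusted p under 0.05 there were 21, 24 and 1 lncRNAs in these comparisons, against 15%, 22.1% and 11.1% of all genes. DESeq2 called 6 in stress and 14 in recovery, all higher, and limma voom with sample quality weights called 6 and 9. The shares of all genes that these methods called are not given, so these counts are no result about lncRNAs. The biological coefficient of variation was 42.8%, against 6.49% in the Rin and Mock RNAi fit and 2.85% in the WT fit. The median log2 fold change over the 74 was 0.81 in stress and 1.03 in recovery, against -0.0091 and 0.032 over all genes tested. The share of lncRNAs was between 0.833% and 1.46% in the control captures, between 1.33% and 4.28% in the stress captures and between 0.914% and 4.49% in the recovery captures.

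Hsromega, CR31044, CR43626 and the alphagamma-element were high in the same captures. Hsromega was at 935, 854 and 829.9 CPM in control, 3357, 1048 and 24762 CPM in stress and 28116, 2536 and 13230.1 CPM in recovery. CR31044 was at 55.5, 54.8 and 45.4 CPM in control, 546, 70.5 and 1662 CPM in stress and 2032, 284 and 813 CPM in recovery. The alphagamma-element was at 6.17, 2.52 and 1.46 CPM in control, 47.8, 4.33 and 555 CPM in stress and 677, 49.1 and 348 CPM in recovery. In each case stress replicate 2 stood near the controls and stress replicate 3 was the highest of the stress captures. The log2 fold changes in stress were 3.48 (SE 1.19, adjusted p = 0.32) for Hsromega, 3.86 (SE 1.05, adjusted p = 0.32) for CR31044 and 5.89 (SE 1.79, adjusted p = 0.32) for the alphagamma-element, none of them called. Without stress replicate 2, 9 lncRNAs were called higher in stress, and the share of all genes called in that fit is not given. roX2 did not follow the poly(A) libraries, at 133, 29.6 and 240.0 CPM in control, 78.5, 37.5 and 58.8 CPM in stress and 69.2, 214 and 150.3 CPM in recovery, with -1.19 (SE 0.66, adjusted p = 0.411) in stress. Recovery captures held 169760 to 441624 gene counts, the fewest of the series.

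**Figure D5:**
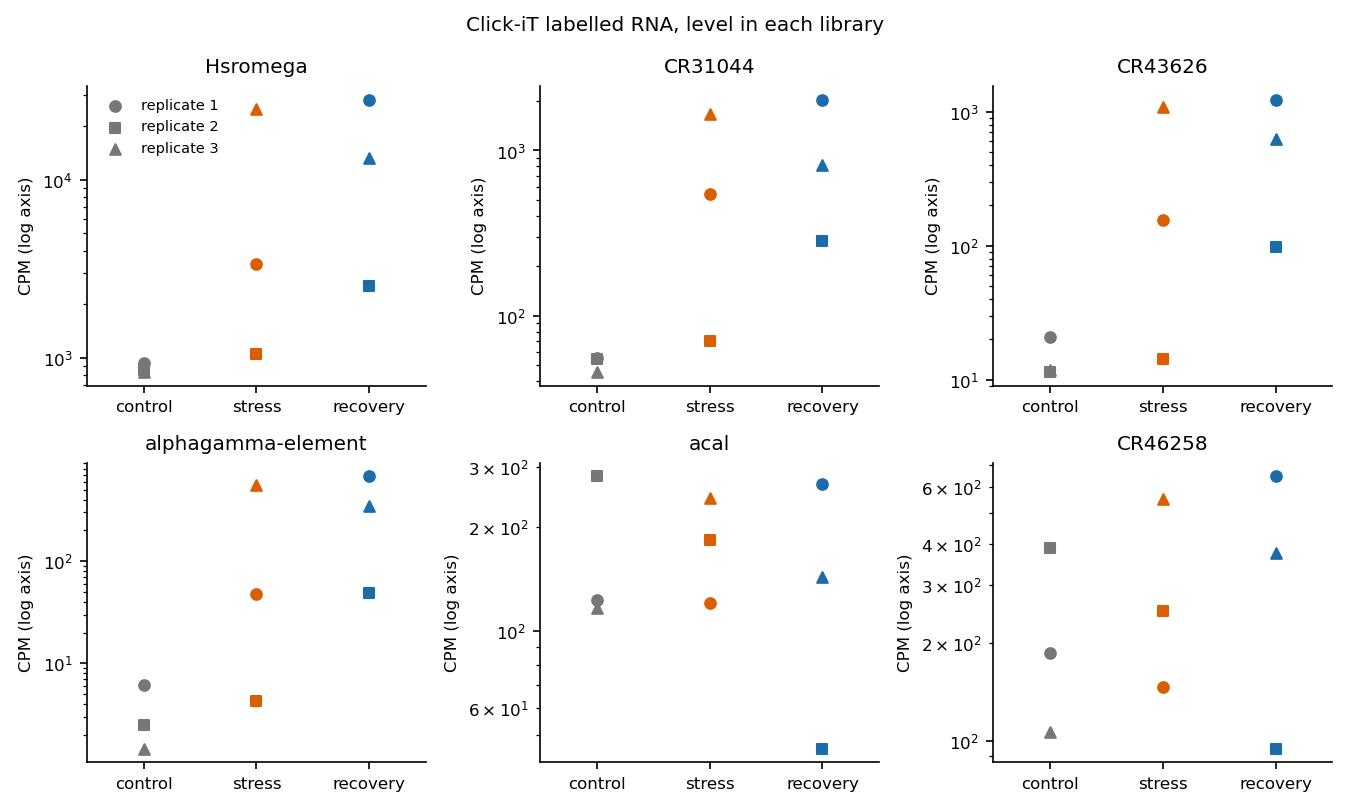
Level in CPM (y axis, log scale) of 6 lncRNAs in the 9 Click-iT captures by stage (x axis), with a marker shape for each replicate number. For Hsromega, CR31044, CR43626 and the alphagamma-element stress replicate 2 sits near the controls, below stress replicates 1 and 3 (for Hsromega 1048 CPM against 3357 and 24762 CPM).

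Set beside the poly(A) controls, the Click-iT controls favoured some lncRNAs. Each kind was scaled on its own and library type, RNA and depth differ together, so no test was made. Of the 198, 13 were more than 10 times higher in the Click-iT control than in the poly(A) controls and 23 were below 0.1 times. Shares of all genes at these ratios are not given. Many of the 23 were at 0 in the Click-iT controls and low in poly(A) RNA, such as CR44811 at 0.27 and CR42839 at 1.02 CPM. The highest ratios were those of CR43604 with 114.8 and CR46090 with 74.6, over poly(A) means of only 0.375 and 1.76 CPM. acal had 35.9, with 123, 282 and 117 CPM in the Click-iT controls against 1.78 to 8.60 CPM in the 9 poly(A) controls. The mir-14 precursor CR43651 had 33.7, over a poly(A) mean of 0.462 CPM, and the mir-184 precursor CR44206 24.9.

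Levels also differed between the RNAi cells and WT cells before any treatment. The mean over Mock and Rin RNAi controls was at least 5 times that of WT controls for 16 of 198 lncRNAs and 0 of 198 stood the other way by as much, with a median ratio of 1.60. The same ratios over all genes are not given, so the offset is not shown to be particular to lncRNAs. The rule that chose the lncRNAs summed reads over 27 libraries, 18 of them Mock or Rin RNAi and 9 WT. A lncRNA high in RNAi cells could thus enter more readily than one high in WT cells. The split therefore describes the chosen set and is no result. For CR43264 the ratio was 13.6, for noe 15.2, for CR44138 21.5 and for CR44953 31.1. CR44811 was listed at 0 in all WT controls. The sets were scaled separately and differ in RNAi treatment and handling, so these ratios carry no test.

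Responses were also set out by size, chromosome and overlap. Over the 6 comparisons with control, the median log2 fold change of the 43 lncRNAs under 500 nt lay between 0.38 and 0.87, and that of the 155 longer ones between 0.18 and 0.44. In Mock RNAi recovery 24 of 43 short and 73 of 155 longer lncRNAs rose, and in WT recovery 10 of 23 short and 51 of 115 longer ones tested did. For the 33 lncRNAs on X the medians lay between 0.00094 and 0.51, and for the 165 elsewhere between 0.25 and 0.58. In Mock RNAi stress 15 of 33 on X and 67 of 165 elsewhere rose, and in WT recovery 9 of 25 on X and 52 of 113 elsewhere did. For the 62 lncRNAs that share exonic bases the medians lay between 0.073 and 0.42, and for the 136 that share none between 0.30 and 0.61. Of all genes tested, 29% rose in Mock RNAi stress, 33.1% in Mock RNAi recovery and 35.2% in WT recovery. The classes include the 25 lncRNAs that reached the limit only through stress or recovery reads. These are descriptions, and the differences between the classes were not tested.

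Many lncRNAs lie just downstream of another gene on the same strand, which ended within 5 kb. Across 49 such pairs the log2 fold changes of lncRNA and neighbour had Pearson's r of 0.30 in stress and 0.35 in recovery in Rin RNAi cells and 0.21 and 0.27 in Mock RNAi cells. Over the 33 pairs tested in WT cells r was 0.50 in stress and 0.37 in recovery. Spearman's rho was 0.13 and 0.16 in Rin RNAi, 0.15 and 0.18 in Mock RNAi and 0.35 and 0.40 in WT cells. Beside the 26 of these lncRNAs that rose in Rin RNAi recovery, 12 neighbours rose and 10 fell. Beside the 27 that rose in Mock RNAi recovery 13 neighbours rose and 8 fell, and beside the 17 in WT recovery 11 rose and 4 fell. Of all genes, 35.2% rose and 34.3% fell in Rin RNAi recovery, 33.1% and 32.8% in Mock RNAi recovery and 35.2% and 33.5% in WT recovery. The pairs share libraries, and genes are not independent replicates.

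Genes of proteins that bind or degrade nuclear RNA mostly fell in stress, and less uniformly in recovery. Of 13 tested genes for omega speckle and hnRNP proteins, 8 fell and 1 rose in Rin RNAi stress, 7 fell and 1 rose in Mock RNAi stress and 10 fell and 2 rose in WT stress. Hrb87F, an hnRNP bound by the omega transcripts, had -0.19 (SE 0.059, adjusted p = 0.0073) in Rin RNAi, -0.25 (SE 0.059, adjusted p = 0.000978) in Mock RNAi and -0.40 (SE 0.036, adjusted p = 9.62e-13) in WT cells. Of 16 tested genes of the exosome and other decay factors, 13 fell in Rin RNAi stress, 13 in Mock RNAi stress and 15 in WT stress, and none rose. Rrp6, the nuclear exonuclease of the exosome, had -0.81 (SE 0.074, adjusted p = 9.61e-09) in Rin RNAi, -1.10 (SE 0.077, adjusted p = 1.64e-10) in Mock RNAi and -0.73 (SE 0.057, adjusted p = 2.83e-14) in WT cells. Of all genes tested, 30.8% fell in Rin RNAi stress, 29.8% in Mock RNAi stress and 30% in WT stress. In recovery 7 of the 13 fell and 2 rose in Rin RNAi, 6 and 3 in Mock RNAi and 10 and 3 in WT cells. Of the 16 decay genes 8 fell and 1 rose in Rin RNAi recovery, and 12 fell in Mock RNAi and 15 in WT recovery. The shares of all genes that fell in recovery were 34.3%, 32.8% and 33.5% in Rin RNAi, Mock RNAi and WT cells.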

How the data were processed

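The deposited files hold raw counts of reads per gene symbol, 1 file per library, with 5 summary lines that were left out of library sizes and tests. The submitters' processing notes name STAR 2.5.3, HTSeq, DESeq2 and the build dm6, without role or order. Counting settings and strand are not given in the sources used here. Reads with several places or several genes are not in the deposited counts. The authors' own comparison tables were not used.

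Counts were fitted with edgeR 4.0.16 in R 4.3.3 (glmQLFit, TMM scaling, filterByExpr), once for the 9 WT, the 18 Mock and Rin RNAi and the 9 Click-iT libraries, with group means and no other term. The fits tested 8123, 8707 and 6558 genes, of which 138, 198 and 74 were lncRNAs described here. Tests were two-sided, and p-values were adjusted over all genes tested (Benjamini-Hochberg), with a call at an adjusted p under 0.05. CPM values use TMM-scaled library sizes within each set. The script was tested on simulated data. DESeq2 1.42.0 and limma 3.58.1 gave alternatives.

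Positions, exon overlaps, miRNA genes and upstream neighbours within 5 kb came from the Ensembl annotation of the dm6 assembly. There 192 of the 198 symbols matched directly and 6 through an older symbol.

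Named are the lncRNAs with a name in the files' symbols, the 10 with the highest mean CPM, up to 5 highest and 5 lowest called per comparison with at least 1 CPM and no overlap, and the 2 lowest p-values where none was called. Other names were chosen after their values were seen. The members and lists were chosen with earlier results of these data known. No sequences were printed and no motifs searched.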

Additional observations from a re-analysis of the deposited data

How the results depend on the processing

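Counts of lncRNAs called were within 1.5 times the reported count in 87 of 105 alternative fits over 17 comparisons, and in 105 of 114 fits that left out 1 library. Directions of named lncRNAs held in all but 4 of 1807 alternative values. These 4 came from total-count scaling: -0.0046 for CR42862 in WT recovery, and -0.0146 in Mock RNAi stress, -0.015 in Mock RNAi recovery and -0.0011 in Rin RNAi recovery for CR45334. The construction of that scaling moves all genes together, as given above.

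WT recovery against stress gave 21 calls with DESeq2, and 26 to 40 with 1 library left out. Mock RNAi recovery against stress gave 6 in a fit of those groups alone, 10 with DESeq2 and 7 to 33 with 1 library left out. Rin RNAi recovery against stress gave 23 to 35 with 1 library left out. With no filter on low counts, Rin RNAi against Mock RNAi gave 1 call in control, 3 in stress and 5 in recovery, and the difference of recovery responses gave 3. DESeq2 gave 1 in stress and 1 in recovery, a fit of those groups alone 1 in recovery, and leaving out 1 library 0 to 1 in stress. In Click-iT stress there were 22 calls with no filter, 6 with DESeq2, 6 with limma voom and sample weights and 0 to 9 with 1 library left out. In Click-iT recovery there were 24 with no filter, 9 in a fit of those groups alone, 14 with DESeq2 and 9 with limma voom. Click-iT recovery against stress gave 1 with no filter. The cause of these differences was not tested. Shares of all genes called are given above for the reported edgeR fits only, not for these alternatives.

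With 1 library left out, calls in stress ranged from 89 to 105 in Rin RNAi, 89 to 100 in Mock RNAi and 61 to 67 in WT cells, and in recovery from 107 to 121 in Rin RNAi, 102 to 115 in Mock RNAi and 74 to 82 in WT cells. Among named lncRNAs 130 of 1854 such values lost their call. Same-numbered libraries deviated together (r over 0.1) in 0 of 9 WT, 6 of 45 Mock and Rin and 3 of 9 Click-iT pairs. Differently numbered libraries did so in 0 of 18 WT, 10 of 90 Mock and Rin and 7 of 18 Click-iT pairs. With 3 libraries per group this cannot settle whether the numbers mark pairs. A replicate block gave 64 calls in WT stress, 101 in Mock RNAi stress and 106 in Rin RNAi stress. Click-iT recovery captures were the shallowest libraries. The motif search listed among the planned results was not run.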
